A study of Mus musculus with 6 samples.

Results

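The aminoacyl-tRNA synthetase genes described here were the protein-coding rows of the count table whose symbol has the form of a single amino acid letter followed by ars, ars1 or ars2, together with Farsa, Farsb, Eprs and Tarsl2. The rule found 38 genes among 49584 rows, 21 for cytosolic and 17 for mitochondrial enzymes. Mitochondrial enzymes were those whose symbol ends in 2, apart from Tarsl2, a relative of Tars that was counted as cytosolic. Their transcripts were compared between 3 libraries labelled Srp68 SKO and 3 labelled wild type, each made by Smart-seq2 from poly(A) RNA of leptotene/zygotene spermatocytes isolated by FACS from the testes of mice at postnatal day 12. Srp68 encodes a protein of the signal recognition particle, which brings ribosomes that are making secreted or membrane proteins to the endoplasmic reticulum. The labels name no Cre driver, deleted exon, strain or sorting gate, and no number of cells or animals for a library, so the p-values measure the spread between these libraries, which may be partly technical. In such bulk samples fewer cells of a type and less RNA per cell cannot be told apart.

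Each synthetase joins an amino acid to the tRNAs that decode it, and protein synthesis stops where a charged tRNA is missing. Animal cells keep separate enzymes for the cytosol and for mitochondria, both encoded in the nucleus, although Gars and Kars each supply both compartments from a single gene. Mitochondria of mammals have no glutaminyl enzyme, and make their glutaminyl-tRNA from glutamyl-tRNA charged by Ears2. Several cytosolic enzymes sit together in the multisynthetase complex with scaffold proteins. Many cytosolic synthetase genes are known targets of ATF4, the transcription factor of the integrated stress response, which binds C/EBP-ATF response elements in promoters.

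The libraries held 11853738 to 12728853 counts in SKO and 14254224 to 15381473 counts in wild type. At that depth 3 counts were worth 0.247 to 0.289 CPM in SKO and 0.174 to 0.196 CPM in wild type libraries, a floor that covers counting error only. CPM is the count per gene relative to the library total, with that total adjusted by TMM, a scaling that assumes most genes alike between libraries. Srp68 had 12.1, 6.52 and 6.93 CPM in SKO, against 21.7, 29.3 and 22.6 CPM in wild type (log2 fold change −1.52, SE 0.28; edgeR adjusted p = 0.00107). All 3 germ cell markers and all 6 markers of leptotene and zygotene cells were abundant in every library, the lowest value being 360.3 CPM for Ddx4 in SKO replicate 3. The summed level of those 6 stage markers was 23579 to 31427 CPM in SKO and 14261 to 17935 CPM in wild type, whereas the 5 markers of pachytene and later cells summed to 10.8 to 16.1 CPM in SKO and 53.2 to 71.6 CPM in wild type. Spermatogonial markers (4 genes) summed to 95.1 to 106 CPM in SKO and 85.2 to 122 CPM in wild type, and 5 Sertoli markers to 17.9 to 91.6 CPM in SKO and 28.8 to 44.3 CPM in wild type, with Amh and Gata4 below 1 CPM in every library. Leydig markers (4 genes, Cyp11a1 at 0 counts) summed to at most 9.03 CPM in SKO and 6.60 CPM in wild type, myoid markers (2 genes) to at most 13.3 and 2.32 CPM, macrophage markers (3 genes) to at most 4.33 and 2.13 CPM, and endothelial markers (2 genes) to at most 0.674 and 0.753 CPM. Erythroid markers (2 genes) summed to 27.1 to 117 CPM in SKO and 2.38 to 105 CPM in wild type. The highest SKO sums of Sertoli, myoid and macrophage markers were all those of replicate 3, and those of Leydig and erythroid markers were those of replicate 2. Clu, a Sertoli marker, had 18.7, 12.4 and 75.2 CPM in SKO replicates 1 to 3, and Acta2 had 3.87, 4.37 and 12.3 CPM. Of the 6 leptotene and zygotene markers 5 were called higher in SKO, and Meiob was not called (log2 fold change −0.082; edgeR adjusted p = 0.615). Of the 5 pachytene and later markers Piwil1 and Ldhc were called lower and the other 3 had too few counts to be tested. Among the germ cell markers Dazl was called higher (log2 fold change 0.37; edgeR adjusted p = 0.00257). Ddx4 (−0.31; edgeR adjusted p = 0.0259) and Mael (−0.66; edgeR adjusted p = 0.000185) were called lower. Acta2, a myoid marker, was called higher (2.25; edgeR adjusted p = 0.00763), and no other somatic or erythroid marker was called. The part of any of these cells in the synthetase differences below was not tested.

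Synthetase transcripts did not move as a block in SKO spermatocytes. A subset of cytosolic genes rose, led by Iars, Cars, Aars and Nars, while other cytosolic genes fell, among them Farsa, Kars and Dars, and mitochondrial genes fell with the exception of Mars2 among those that passed the test. Of the 21 cytosolic genes, all tested, 7 were called higher and 6 lower, where 14.1% of all 13474 tested genes were called higher and 14.4% lower (edgeR's quasi-likelihood test, adjusted p under 0.05). The cytosolic shares were 33.3% higher and 28.6% lower. Cytosolic decreases numbered 3 in the fit without SKO replicate 3, without wild type replicate 1 or without wild type replicate 2. Of the 16 mitochondrial genes with enough counts to be tested, 1 was called higher and 6 lower, shares of 6.25% and 37.5%. Pars2 was not tested, with 6 counts over the SKO libraries and 51 over the wild type libraries, 48 of them in replicate 1. The median log2 fold change was −0.25 for the tested cytosolic genes and −0.58 for the tested mitochondrial genes, beside −0.029 for all tested genes. In 9 of the 37 tested members every SKO library lay above every wild type library, and in 13 every SKO library lay below, where 21.6% and 22.2% of all tested genes did so.

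**Figure D1:**
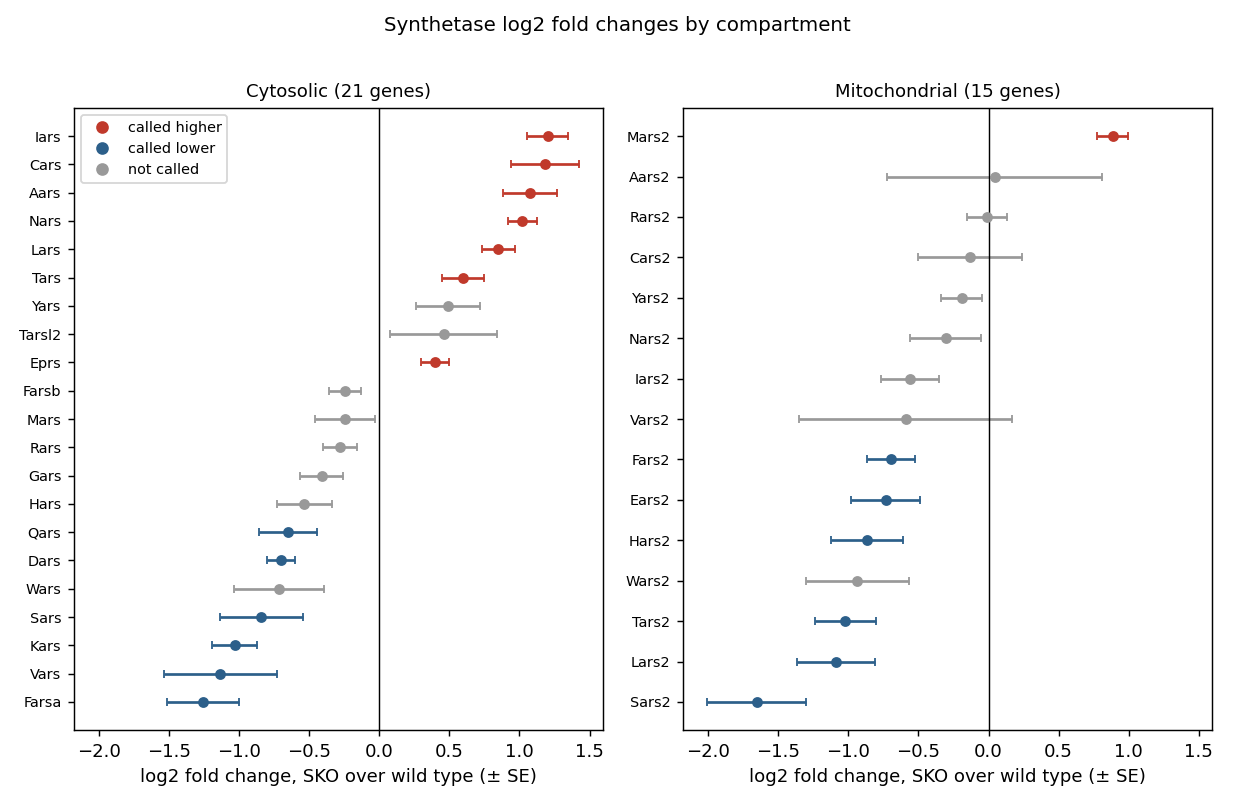
Log2 fold changes (horizontal axis, SKO over wild type) of 21 cytosolic and 15 mitochondrial synthetase genes, with points as estimates and bars as ± SE. The cytosolic genes ran from −1.26 to 1.20 and the mitochondrial genes from −1.65 to 0.89.

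The scaling of the libraries mattered for these calls. When the library totals alone were used, the median of all tested genes was −0.29, with 7.5% of them called higher and 23.5% lower, and the members counted 6 higher and 20 lower in place of 8 and 12. Relative to all genes the medians were −0.22 for cytosolic genes under both scalings, and −0.54 in place of −0.55 for mitochondrial genes. A change of scaling multiplies all genes of a library by 1 factor, so these relative medians could hardly move and are no test of the result.

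Isoleucyl-, cysteinyl-, alanyl- and asparaginyl-tRNA synthetase transcripts stood at 203% to 230% of the wild type mean in SKO cells. Iars, the isoleucyl enzyme of the multisynthetase complex, had 80.1, 68.6 and 72.0 CPM in SKO replicates 1 to 3, against 30.1, 32.3 and 33.5 CPM in wild type replicates 1 to 3. The genotypes were far apart, with an SKO mean at 230% of the wild type mean (log2 fold change 1.20, SE 0.15; edgeR adjusted p = 4.67e-05). Cars, which charges cysteine, had 36.4, 41.6 and 29.8 CPM in SKO, against 20.8, 15.8 and 10.9 CPM in wild type. All SKO values were above all wild type values (log2 fold change 1.18, SE 0.24; edgeR adjusted p = 0.00227). Aars, which charges alanine, had 32.2, 37.9 and 38.5 CPM in SKO, against 18.7, 17.5 and 15.3 CPM in wild type. The groups did not overlap (log2 fold change 1.07, SE 0.19; edgeR adjusted p = 0.000799). Of the exon length of Aars, 15.1% lies over Exosc6 on the same strand, and Exosc6, named after its values were seen, had 0 counts in every library. How reads in shared exons were counted is not known, so those 0 counts do not show whether Exosc6 RNA was present.

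Among the transcripts that rose, that of Nars, the asparaginyl enzyme, was the most abundant per exon length. Eprs, with a greater exon length, had more CPM in every library. Nars had 304, 274 and 306 CPM in SKO, against 153, 148 and 134 CPM in wild type. Its groups were tight and separate (log2 fold change 1.02, SE 0.11; edgeR adjusted p = 1.39e-05). Lars, the leucyl enzyme, which is also known as a leucine sensor upstream of mTORC1, had 132, 123 and 130 CPM in SKO, against 71.2, 67.1 and 75.5 CPM in wild type. No SKO library came near the wild type range (log2 fold change 0.85, SE 0.12; edgeR adjusted p = 0.000129). These 5 increases were called under each of the 17 alternative settings tried, left-out libraries included.

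A pair of smaller increases depended on the settings. Tars, the threonyl enzyme, had 78.4, 61.7 and 75.5 CPM in SKO, against 43.9, 46.7 and 52.3 CPM in wild type, with separate groups (log2 fold change 0.59, SE 0.15; edgeR adjusted p = 0.00841). When library totals alone were used it stood at 0.33 and was not called (edgeR adjusted p = 0.123). Eprs, a fused protein that charges both glutamate and proline, had 338, 340 and 324 CPM in SKO, against 274, 247 and 240 CPM in wild type. The groups were separate (log2 fold change 0.40, SE 0.10; edgeR adjusted p = 0.00799). It stood at 0.14 with library totals (edgeR adjusted p = 0.328). Once the trend of each library on GC content and merged exon length was removed, it stood at −0.064 (edgeR adjusted p = 0.720). The exons of all its transcripts merge to 18.1 kb, the largest length among the members, beside a coding sequence of 1512 codons.

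**Figure D2:**
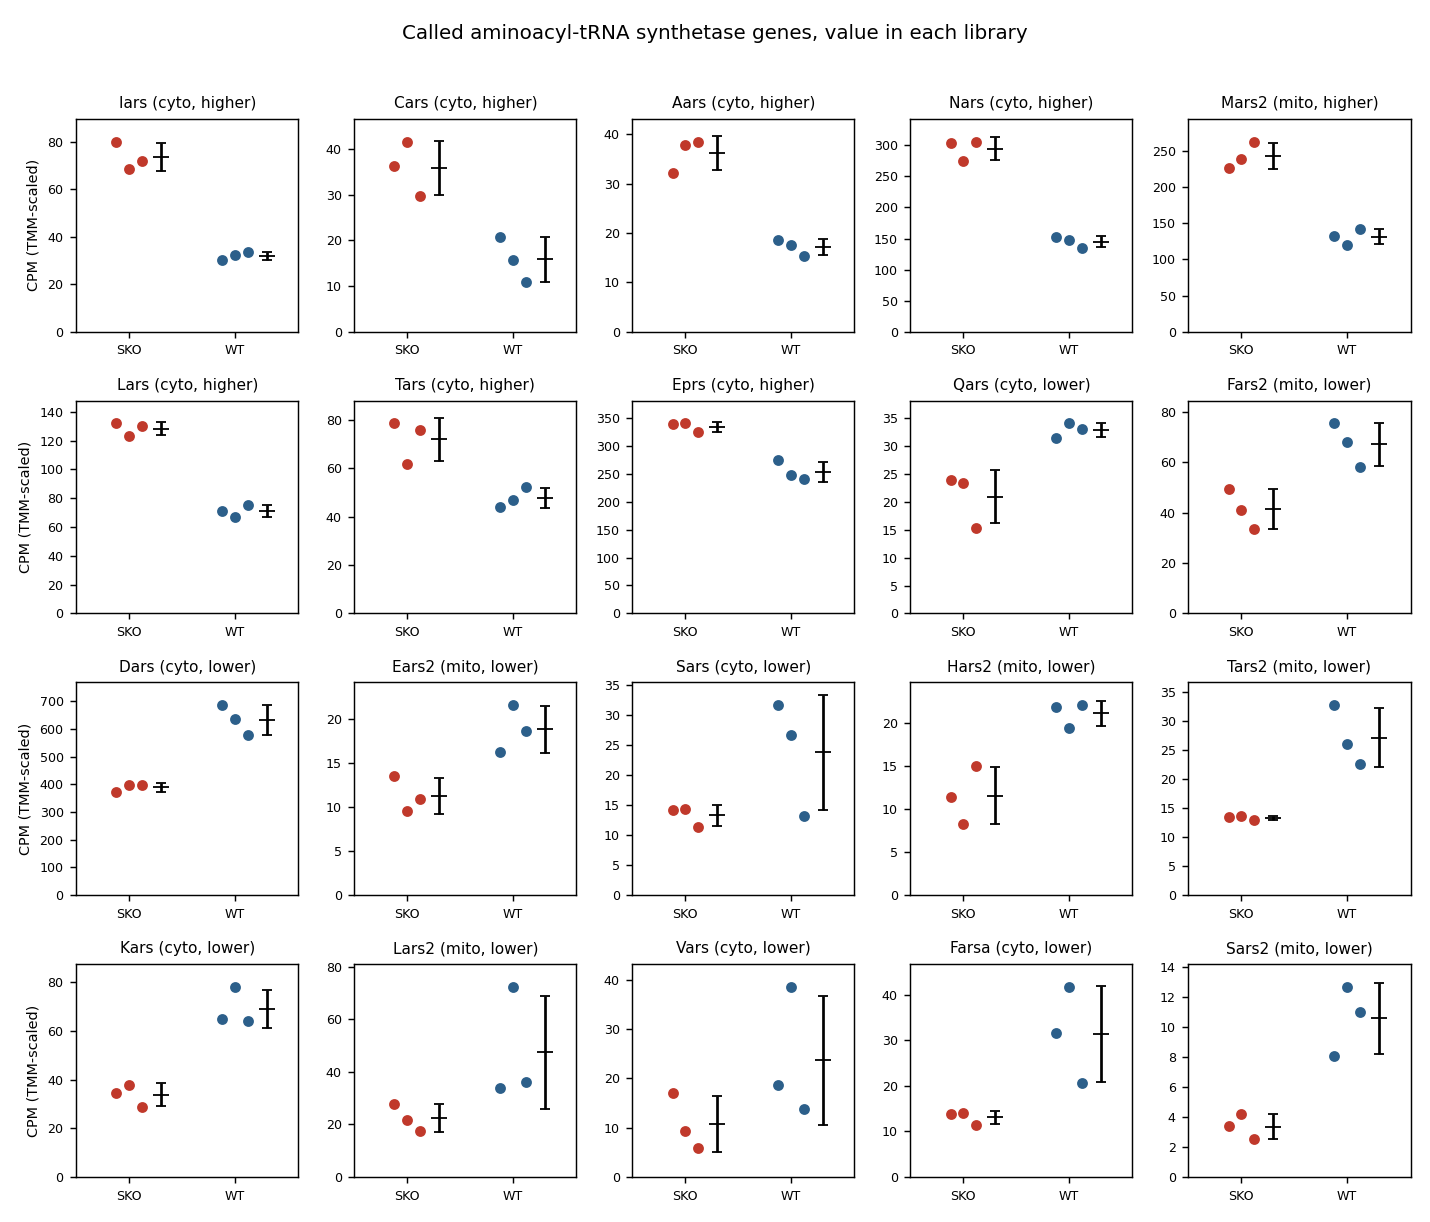
CPM (vertical axis, from 0) in each library for the 20 called synthetase genes, in order of log2 fold change; points are libraries, with the mean and SD beside them, SKO left and wild type (WT) right. The genotypes overlap in Sars, where SKO replicate 1 had 14.2 CPM and wild type replicate 3 had 13.1 CPM, and in Vars, where SKO replicate 1 had 17.03 CPM and wild type replicate 3 had 13.7 CPM.

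Some promoters of these genes carry the core of the C/EBP-ATF response element. The motif searched was TGATGNAA on either strand, which reads TTNCATCA when it lies on the opposite strand, in RefSeq windows of GRCm38.p6 that run from 250 bases before to 50 after each transcription start. Windows were matched for 28 of the 38 genes. The motif was present in 5 of 14 cytosolic and 0 of 14 mitochondrial genes with a window, where 4.51% of all 27025 genes with a window have it. The 5 genes were Aars, Iars, Tars, Yars and Gars. Eprs, Tarsl2, Farsb, Mars, Dars, Kars, Qars, Farsa and Sars had windows without a match. No window was matched for Cars, Nars, Lars, Rars, Hars, Wars and Vars, so these cytosolic genes were not searched. The 3 sites that lie before the start are shown because they fall in genes that did and did not rise, each with the motif in capitals, read 5′ to 3′ on the strand of the gene.
Aars: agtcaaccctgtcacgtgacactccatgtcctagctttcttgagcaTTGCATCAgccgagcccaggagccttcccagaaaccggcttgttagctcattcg
Tars: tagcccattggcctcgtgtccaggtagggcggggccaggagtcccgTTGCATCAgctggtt
Gars: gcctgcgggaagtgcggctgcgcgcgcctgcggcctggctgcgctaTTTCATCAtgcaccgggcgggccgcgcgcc
The stretch of Aars is chr8:111033684-111033783 on the plus strand, with the motif beginning 112 bases before the start. That of Tars is chr15:11399659-11399719 on the minus strand, with the motif 15 bases before the start, and that of Gars is chr6:55037925-55038000 on the plus strand, with the motif 30 bases before it. The letters at the sites shown are TTGCATCA in Aars and Tars, both called higher, and TTTCATCA in Gars, not called. The matches in Iars and Yars and another match in Aars are not shown, and no link between letters and calls was tested. A match describes the letters of the window and does not show that a factor binds there.

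Aspartyl- and lysyl-tRNA synthetase transcripts fell. Dars, the aspartyl enzyme and the most abundant synthetase transcript per exon length, had 371, 399 and 400 CPM in SKO, against 686, 636 and 578 CPM in wild type. Its groups were far apart (log2 fold change −0.70, SE 0.10; edgeR adjusted p = 0.000141). Kars, which charges lysine in both compartments, had 34.6, 38.0 and 28.8 CPM in SKO, against 64.9, 78.1 and 64.3 CPM in wild type. In SKO the mean came to 48.9% of that in wild type, with no overlap (log2 fold change −1.03, SE 0.16; edgeR adjusted p = 0.000312). Both decreases were called under each of the 17 alternative settings.

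The subunits of phenylalanyl-tRNA synthetase, an enzyme built from alpha subunits encoded by Farsa and beta subunits encoded by Farsb, had unlike values. Farsa had 13.8, 14.1 and 11.5 CPM in SKO, against 31.6, 41.8 and 20.6 CPM in wild type. It was lower in every SKO library (log2 fold change −1.26, SE 0.26; edgeR adjusted p = 0.00221), and was called under each of the 17 alternatives. Farsb had 233, 214 and 184 CPM in SKO, against 273, 247 and 227 CPM in wild type. The groups overlap, as SKO replicate 1 lies above wild type replicate 3, and the difference was not called (log2 fold change −0.24, SE 0.12; edgeR adjusted p = 0.138), but it was called lower with library totals (−0.50; edgeR adjusted p = 0.00788). Within each library, the log2 ratio of Farsa to Farsb, chosen after the values were seen and not tested, was −4.07, −3.92 and −4.00 in SKO, against −3.11, −2.56 and −3.46 in wild type. Of the exon length of Farsb, 9.47% lies over Sgpp2 on the opposite strand.

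Qars, Sars and Vars were called lower with less support. Qars, the cytosolic glutaminyl enzyme, had 23.9, 23.5 and 15.4 CPM in SKO, against 31.5, 34.1 and 33.1 CPM in wild type, with separate groups (log2 fold change −0.65, SE 0.21; edgeR adjusted p = 0.0302). It was not called without SKO replicate 2 (−0.75) or 3 (−0.48) or without wild type replicate 1 (−0.68), 2 (−0.63) or 3 (−0.65), nor after removal of the GC content and length trend (−0.51). Sars, the seryl enzyme, had 14.2, 14.3 and 11.3 CPM in SKO, against 31.6, 26.6 and 13.1 CPM in wild type, so that its groups overlap (log2 fold change −0.84, SE 0.30; edgeR adjusted p = 0.0466). Its call was lost without SKO replicate 1 (−0.90), 2 (−0.91) or 3 (−0.74) or wild type replicate 1 (−0.59) or 2 (−0.75), and after removal of the trend it stood at −0.53. Vars, the valyl enzyme, had 17.03, 9.31 and 5.87 CPM in SKO, against 18.7, 38.6 and 13.7 CPM in wild type, with overlap (log2 fold change −1.13, SE 0.40; edgeR adjusted p = 0.0490). Its call was lost without SKO replicate 2 (−1.05) or 3 (−0.85) or wild type replicate 1 (−1.28) or 2 (−0.59), and after removal of the trend it stood at −0.53. Sars and Vars were also not called with upper-quartile scaling or limma-voom.

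The other 8 cytosolic genes did not pass the test. Yars, the tyrosyl enzyme, had 22.0, 21.1 and 23.2 CPM in SKO, against 18.8, 16.5 and 12.0 CPM in wild type; every SKO library was above every wild type library (log2 fold change 0.49, SE 0.23; edgeR adjusted p = 0.131), and after removal of the GC content and length trend the value was 0.75 (edgeR adjusted p = 0.0240). Gars, the glycyl enzyme of both compartments, had 60.7, 66.0 and 65.3 CPM in SKO, against 77.6, 106 and 71.9 CPM in wild type, a lower range without overlap (log2 fold change −0.41, SE 0.16; edgeR adjusted p = 0.0630). It passed with 4 of 17 alternatives, among them the fit without wild type replicate 3 (−0.52; edgeR adjusted p = 0.0286). Hars, the histidyl enzyme, had 27.1, 37.6 and 27.0 CPM in SKO, against 54.0, 38.5 and 40.3 CPM in wild type, also without overlap (log2 fold change −0.53, SE 0.20; edgeR adjusted p = 0.0571). It passed with 5 of 17 alternatives, among them the fit without SKO replicate 2 (−0.71; edgeR adjusted p = 0.0372). Of its exon length, 7.97% lies over Hars2 on the opposite strand. Rars, the arginyl enzyme, stood at −0.28 with separate groups, and the tryptophanyl enzyme gene Wars at −0.72, Mars, for methionine, at −0.25 and Tarsl2 at 0.46 with overlapping groups, all log2 fold changes with edgeR adjusted p between 0.106 and 0.432. Of the exon length of Mars, 1.99% lies over Ddit3 on the opposite strand, a gene that averaged 89.6 ± 4.47 CPM in SKO and 29.1 ± 6.19 CPM in wild type (SD, n = 3 each).

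Enzymes of the multisynthetase complex were called in both directions. Among the 8 enzymes of the complex, 3 were called higher (Iars, Lars and Eprs), 3 lower (Dars, Kars and Qars) and 2 did not pass (Mars and Rars), with a median log2 fold change of −0.26. Among the other 13 cytosolic genes, 4 were called higher and 3 lower, with a median of −0.25. Synthetases fall into classes I and II by the fold of their catalytic domain. Cytosolic class I genes counted 3 higher and 2 lower of 9, and class II genes 3 higher and 4 lower of 11, with Eprs, which holds domains of both classes, left out. Beside these small counts stand the 14.1% of all tested genes called higher and the 14.4% called lower. After removal of the GC content and length trend, cytosolic class I counted 4 higher and 0 lower, with a median of 0.18 in place of −0.25. Class II then counted 3 higher and 3 lower. In that fit 10.1% of all tested genes were called higher and 13.3% lower, with a median of −0.056. With so few genes in each class, these counts are no result about the classes.

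Of the mitochondrial enzymes, Mars2 was the only gene called higher. Mars2, the mitochondrial methionyl enzyme, encoded on GRCm38 chromosome 1 from 55237177 to 55248470 on the plus strand, had 226, 238 and 262 CPM in SKO, against 132, 120 and 142 CPM in wild type. The groups were separate, with the SKO mean at 185% of the wild type mean (log2 fold change 0.89, SE 0.11; edgeR adjusted p = 6.10e-05). After removal of the GC content and length trend its value was 0.42, and the call remained (edgeR adjusted p = 0.00523). Its longest transcript has a GC content of 38.8%, the lowest of all members.

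Decreases were called for the mitochondrial seryl, leucyl, threonyl, histidyl, glutamyl and phenylalanyl enzymes. Sars2 had 3.37, 4.19 and 2.50 CPM in SKO, against 8.06, 12.7 and 11.003 CPM in wild type. Every SKO library was below every wild type library, with an SKO mean at 31.7% of the wild type mean (log2 fold change −1.65, SE 0.35; edgeR adjusted p = 0.00294), which stood at −0.91 and was not called after removal of the trend (edgeR adjusted p = 0.0658). Lars2 had 27.9, 21.5 and 17.5 CPM in SKO, against 33.8, 72.3 and 36.2 CPM in wild type. The groups were separate but wild type replicate 2 stood far above the rest (log2 fold change −1.09, SE 0.28; edgeR adjusted p = 0.00897), and the value was −0.65 without that library and −0.95 without SKO replicate 3, neither of them called (edgeR adjusted p = 0.0667 and 0.0505). Tars2 had 13.4, 13.7 and 13.0 CPM in SKO, against 32.7, 26.1 and 22.6 CPM in wild type. Its SKO libraries agreed closely and lay well below all wild type libraries (log2 fold change −1.02, SE 0.22; edgeR adjusted p = 0.00303), and it was called under each of the 17 alternatives.

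Hars2 had 11.4, 8.28 and 15.0 CPM in SKO, against 21.9, 19.5 and 22.1 CPM in wild type, with no overlap (log2 fold change −0.87, SE 0.26; edgeR adjusted p = 0.0203). It lost its call without SKO replicate 1 (−0.86) or 2 (−0.68) or wild type replicate 1 (−0.84). Hars and Hars2 lie head to head on opposite strands, and 4.56% of the exon length of Hars2 overlaps Hars. Ears2, which also feeds mitochondrial glutaminyl-tRNA synthesis, had 13.5, 9.49 and 10.9 CPM in SKO, against 16.2, 21.5 and 18.6 CPM in wild type, again without overlap (log2 fold change −0.73, SE 0.25; edgeR adjusted p = 0.0386). It lost its call without SKO replicate 2 (−0.63) or 3 (−0.71) or wild type replicate 2 (−0.62) or 3 (−0.74), and after removal of the trend (−0.54). Fars2, which works as a single chain, had 49.5, 41.1 and 33.7 CPM in SKO, against 75.4, 67.9 and 58.2 CPM in wild type. Its groups were separate (log2 fold change −0.69, SE 0.17; edgeR adjusted p = 0.00763), with a value of −0.45 after removal of the trend that still passed (edgeR adjusted p = 0.0487). Of its exon length, 10.7% lies over genes on the opposite strand.

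Of the 9 tested mitochondrial genes that did not pass, all had overlapping genotypes. Rars2 was the most abundant mitochondrial synthetase transcript per exon length, with 186, 174 and 175 CPM in SKO, against 225, 149 and 165 CPM in wild type (log2 fold change −0.0097, SE 0.14; edgeR adjusted p = 0.970). Iars2 had 20.3, 24.1 and 29.4 CPM in SKO, against 28.7, 39.2 and 41.0 CPM in wild type (log2 fold change −0.56, SE 0.21; edgeR adjusted p = 0.0577). Iars2 passed with 9 of 17 alternatives, among them the fits without SKO replicate 3 (−0.71) and without wild type replicate 1 (−0.70), and 24.2% of its exon length overlaps genes on the opposite strand. Wars2, at −0.94, passed with 5 of 17 alternatives, among them the fit without SKO replicate 1 (−1.36; edgeR adjusted p = 0.0215). Yars2, Nars2 and Cars2 ran from −0.31 to −0.13 in log2 fold change. Aars2 and Vars2, at 0.043 and −0.59, had means under 3 CPM in both genotypes, and their standard errors of 0.77 and 0.76 were the largest among the members.

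For 7 of 17 amino acids the ratio of the cytosolic to the mitochondrial form lay, in all SKO libraries, above the whole wild type range. For 2 it lay below that range, and for 8 the genotypes overlapped. Being a ratio within a library, it does not depend on the scaling between libraries. An exact two-sided permutation test of 3 libraries against 3 cannot give a p below 0.1, which those 9 pairs reached, and the smallest value adjusted over the 17 pairs was 0.189. Among all tested genes, taken singly, 43.8% had genotypes that did not overlap, and no such share was computed for ratios of other genes. Eprs serves both the glutamate and the proline pair, so the pairs are not independent. For leucine, the log2 ratio of Lars to Lars2 was 2.24, 2.51 and 2.89 in SKO, against 1.07, −0.11 and 1.06 in wild type, a difference of 1.87 that was 1.48 without wild type replicate 2. For isoleucine, the log2 ratio of Iars to Iars2 was 1.98, 1.51 and 1.29 in SKO, against 0.07, −0.28 and −0.29 in wild type, so that the cytosolic form exceeded the mitochondrial one in CPM in all SKO libraries and in 1 of 3 wild type libraries. For threonine, Tars to Tars2 stood at 2.54, 2.17 and 2.54 in SKO, against 0.42, 0.84 and 1.21 in wild type. In these 3 pairs the cytosolic gene was called higher in SKO, and Lars2 and Tars2, but not Iars2, were called lower.

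Asparagine, cysteine, glutamate (Eprs to Ears2) and tyrosine pairs shifted the same way, with differences in mean log2 ratio, SKO minus wild type, of 1.39, 1.38, 1.14 and 0.70. The ratio moved the other way for methionine, where Mars to Mars2 was −2.36, −2.86 and −2.77 in SKO, against −1.37, −1.12 and −2.22 in wild type. After removal of the GC content and length trend, the difference was −0.24 in place of −1.10 for methionine and 0.48 in place of 1.14 for glutamate. The 8 overlapping pairs were those for alanine, phenylalanine, histidine, proline, arginine, serine, valine and tryptophan. The proline pair rests on Pars2, which had 0 counts in SKO replicate 3.

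**Figure D3:**
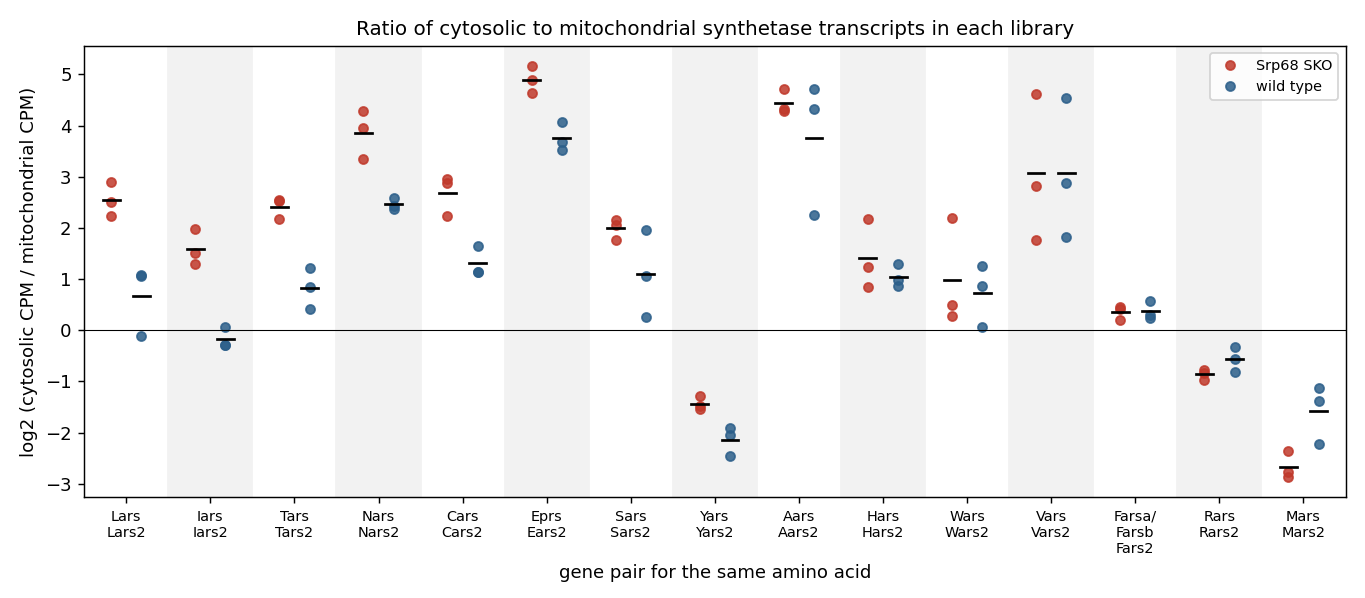
Log2 ratio of cytosolic to mitochondrial CPM (vertical axis) in each library for 15 amino acid pairs, SKO (red) left of wild type (blue), with bars at the means; the proline pair, with Pars2 near 0, is not drawn. Leucine, isoleucine, threonine, asparagine, cysteine, glutamate and tyrosine pairs stand apart upward. The methionine pair lies downward by a narrow gap, with SKO replicate 1 at −2.36 and wild type replicate 3 at −2.22.

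The summed amount of synthetase transcript depended on the scaling. With TMM, the 21 cytosolic genes summed to 1992, 1932 and 1899 CPM in SKO, against 2108, 2037 and 1800 CPM in wild type, and the 17 mitochondrial genes to 667, 649 and 691 CPM in SKO, against 740, 655 and 662 CPM in wild type. Both sums overlap between the genotypes. Library totals alone were among the planned settings, but their use for these sums was chosen after seeing the data. With them, the cytosolic sum was 1906, 1749 and 1669 CPM in SKO, against 2300, 2292 and 1927 CPM in wild type. The mitochondrial sum was 638, 587 and 607 CPM in SKO, against 807, 736 and 709 CPM in wild type. Neither sum then overlaps, and both are lower in every SKO library. Dars took 18.6, 20.7 and 21.0% of the cytosolic sum in SKO, against 32.5, 31.2 and 32.1% in wild type. That share is taken within each library and was chosen for display with the values of Dars known.

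Per kb of exon, the cytosolic genes had a median of 11.2 CPM per kb in SKO and 8.07 CPM per kb in wild type, and the mitochondrial genes 2.19 and 3.92 CPM per kb. The cytosolic medians fall on different genes, Mars in SKO and Tars in wild type, as do the mitochondrial ones, Ears2 and Tars2. Their difference is therefore not a change of any gene, and Mars itself had 13.3 CPM per kb in wild type. Dars was highest in both genotypes, at 89.5 ± 3.72 CPM per kb in SKO and 145 ± 12.4 CPM per kb in wild type (SD, n = 3 each). Farsb followed at 80.3 ± 9.30 CPM per kb in SKO and 95.1 ± 8.74 CPM per kb in wild type, and in SKO its spread reaches that of Dars. Nars held rank 3 in SKO, at 67.7 ± 4.11 CPM per kb, and rank 5 in wild type, at 33.3 ± 2.19 CPM per kb. Rars2 was next to it in SKO, at 64.3 ± 2.45 CPM per kb, within the spread of Nars, and held rank 3 in wild type, at 64.8 ± 14.4 CPM per kb. The lowest cytosolic level was that of Tarsl2, at 1.39 CPM per kb in SKO and 1.02 CPM per kb in wild type. These levels use the merged exon length of each gene, which is 18.1 kb for Eprs, and their order depends on that length.

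**Figure D4:**
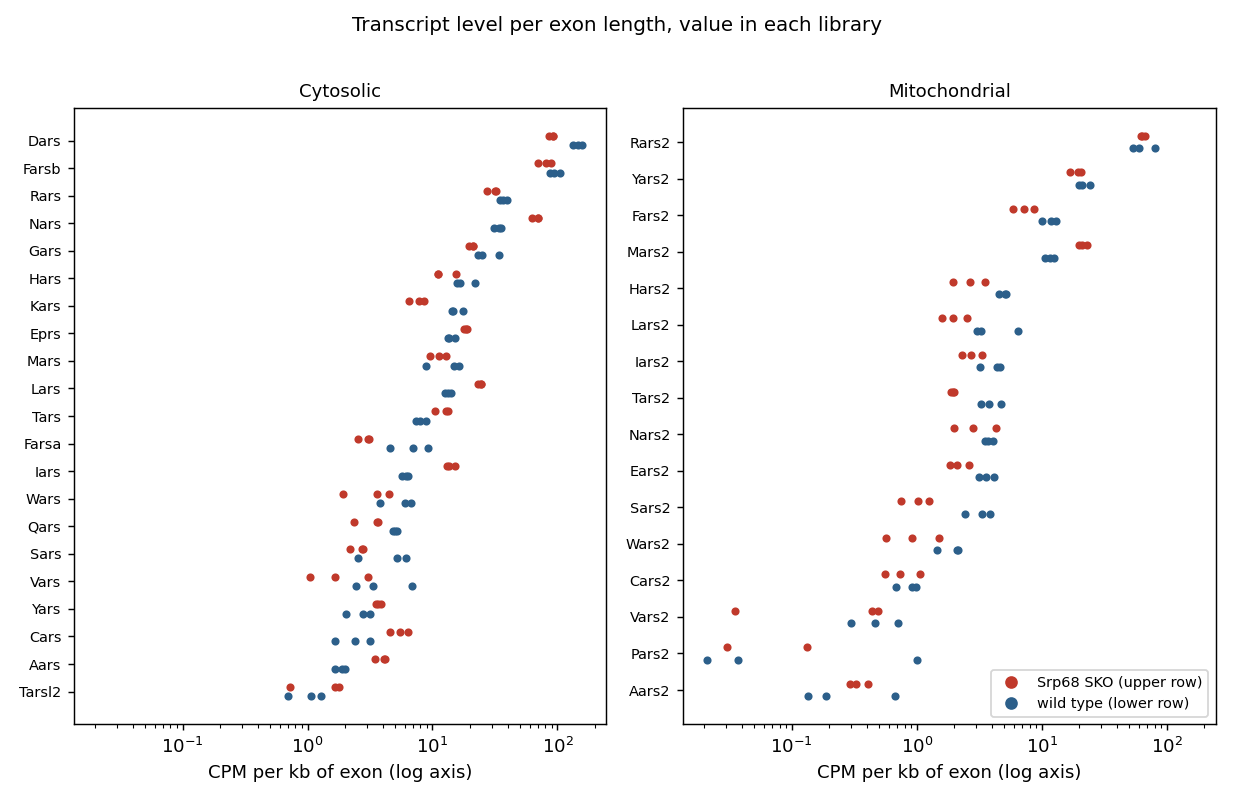
CPM per kb of merged exon length (horizontal log axis) in each library, with SKO in the upper and wild type in the lower row of each gene; the SKO library in which Pars2 had 0 counts is not drawn. Nars stands at 67.7 CPM per kb in SKO and 33.3 CPM per kb in wild type.

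The partners of the synthetases, 18 genes chosen for their roles, had a median log2 fold change of 0.015, and 3 of them were called higher and 2 lower. Those shares, 16.7% and 11.1%, are near the 14.1% and 14.4% of all tested genes. Eef1e1 and Aimp1, scaffold proteins of the multisynthetase complex, rose. Eef1e1 had 336, 377 and 380 CPM in SKO, against 242, 246 and 278 CPM in wild type, without overlap (log2 fold change 0.51, SE 0.10; edgeR adjusted p = 0.00206). Aimp1 had 269, 254 and 240 CPM in SKO, against 163, 175 and 190 CPM in wild type, again without overlap (log2 fold change 0.53, SE 0.11; edgeR adjusted p = 0.00191). Both calls were lost with library totals (0.25 and 0.27), and that of Aimp1 after removal of the GC content and length trend (0.052). The other scaffold gene, Aimp2, stood at −0.0058 (SE 0.15; edgeR adjusted p = 0.983), with 29.4% of its exon length over Eif2ak1 on the opposite strand.

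Mtfmt, which formylates the methionyl-tRNA that starts mitochondrial translation, fell, in contrast to Mars2, which charges that tRNA. It had 30.9, 24.3 and 18.1 CPM in SKO, against 60.3, 59.5 and 45.1 CPM in wild type (log2 fold change −1.17, SE 0.21; edgeR adjusted p = 0.000797). Its genotypes did not overlap, and the value after removal of the trend was −0.98. Prorsd1, a relative of bacterial editing domains for mischarged prolyl-tRNA, had 62.8, 63.9 and 72.4 CPM in SKO, against 43.8, 41.1 and 38.8 CPM in wild type, and rose (log2 fold change 0.69, SE 0.14; edgeR adjusted p = 0.00269), but stood at 0.18 after removal of the trend (edgeR adjusted p = 0.447). Eef1a1, the elongation factor that carries charged tRNA to the ribosome, had 743, 650 and 713 CPM in SKO, against 948, 872 and 791 CPM in wild type (log2 fold change −0.31, SE 0.10; edgeR adjusted p = 0.0306). Its groups were separate, but the call was lost without SKO replicate 2 (−0.26) or 3 (−0.32) or wild type replicate 1 (−0.24) or 2 (−0.31), with upper-quartile scaling (−0.27) and after removal of the trend (−0.26), and 16.3% of the 100-base stretches of its transcripts also occur in those of other genes. Xpot, which exports tRNA from the nucleus, was at 0.035 (SE 0.28; edgeR adjusted p = 0.944). The amidotransferase genes Gatb, Gatc and Qrsl1, which complete mitochondrial glutaminyl-tRNA after Ears2, stood at −0.43, −0.58 and −0.29 and did not pass (edgeR adjusted p = 0.0957 to 0.198).

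GC content went with the fold change among all tested genes and among the mitochondrial members, and hardly among the cytosolic ones. Spearman's rho between the GC content of a gene's longest transcript and its log2 fold change was −0.34 over 13452 tested genes, −0.26 over the 37 tested members, −0.094 over the 21 cytosolic and −0.50 over the 16 tested mitochondrial genes; these are descriptions across genes that share the same 6 libraries. With each library's trend on GC content and length removed, 10.1% of all tested genes were called higher and 13.3% lower. The cytosolic genes then counted 7 higher, with Yars in and Eprs out, and 3 lower, Dars, Kars and Farsa. The mitochondrial genes counted 1 higher, Mars2, and 5 lower, with Iars2 in and Sars2 and Ears2 out. The medians were −0.17 for cytosolic and −0.45 for mitochondrial genes, beside −0.056 for all genes.

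**Figure D5:**
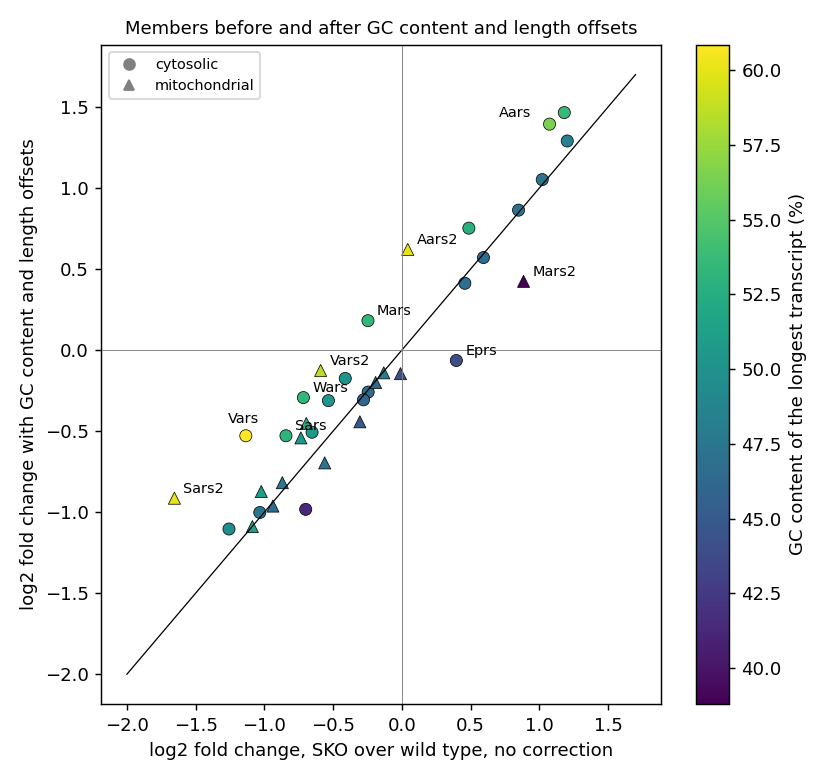
Log2 fold change of 36 tested members without correction (horizontal axis) and with GC content and length offsets (vertical axis); circles are cytosolic and triangles mitochondrial genes, colour gives GC content, the line marks equal values, and names are given where the values differ by more than 0.3. Eprs stands at 0.40 without and −0.064 with the offsets, and Sars2 at −1.65 without and −0.91 with them, while Iars, Nars, Lars, Dars and Kars stayed on the same side of 0.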

How the data were processed

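Poly(A) RNA was measured in 6 Smart-seq2 libraries, 3 per genotype. Per the submitters' processing notes, reads were checked with FastQC, trimmed with Trim Galore 0.6.4 and aligned with HISAT2 2.0.5 to GRCm38 (mm10). The tool, strand setting and annotation for counting were not given in the sources used here. Gene counts, raw and whole, are what the authors deposited, with no normalization. Knockout columns are named CKO where the labels write SKO and were matched by genotype and replicate number. Without molecular identifiers, PCR copies are not independent molecules. Symbols, positions, exon lengths and GC content came from GENCODE vM21, and promoter windows from RefSeq GRCm38.p6.

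In R 4.3.3 and edgeR 4.0.16, filterByExpr kept 13474 genes, libraries were scaled by TMM, and genotype was tested by the quasi-likelihood test with p-values adjusted over all of them by Benjamini-Hochberg. SE was derived from the same fit, as the absolute log2 fold change divided by the square root of its F statistic. The fit was tested on simulated data drawn from its own model with few genes changed, which cannot show whether the scaling or the GC content trend affects the calls. DESeq2 1.42.0, limma 3.58.1 voom and the GC content and length offsets (loess, span 0.3) were alternatives. Pair ratios used a prior count of 0.5. By the naming rule the members were open to naming, and of the partner list the called genes with a few others picked for their roles after their values were seen, as was Ddit3. The members, lists and motif were chosen with earlier results of these data known. Protein sequences were not used here. Results of 1 gene are not reported here by name and it is not drawn, but it is part of the counts, sums and medians.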

Additional observations from a re-analysis of the deposited data

How the results depend on the processing

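The 7 cytosolic increases came to 5 with library totals, and the count was 7 with each library left out. Cytosolic decreases, 6 with TMM, came to 11 with library totals, 3 with the GC content and length offsets, 3 with the replicate block plus those offsets, and 3 to 6 with 1 library left out. The cytosolic median, −0.25, was −0.51 with library totals, and the mitochondrial median, −0.58, was −0.83 with library totals, −0.45 with the offsets and −0.64 to −0.39 with 1 library left out. Over all genes, library totals gave 1010 higher and 3168 lower in place of 1901 and 1937. For the partner list, library totals gave 1 higher and 6 lower in place of 3 and 2. Decreases in that list were 1 with upper-quartile scaling, 1 with the offsets and 1 to 2 with 1 library left out. Eprs turned to −0.064 with the offsets and to −0.060 with the replicate block plus offsets. The cause of these moves was not tested. Where 1 library was left out, its absence and the smaller number of libraries cannot be told apart. With 1 library left out, the difference in log2 ratio ran from −0.077 to 1.16 for alanine, −0.088 to 0.084 for phenylalanine, −0.0068 to 0.66 for histidine, −0.79 to 0.72 for valine and −0.34 to 0.62 for tryptophan, all overlapping pairs. Same-numbered libraries of the genotypes did not deviate together (correlations of 0.02, −0.05 and 0.04), so the numbers were not taken as pairs. A replicate block gave 1976 higher and 1991 lower over all genes, and it added calls for Iars2 (−0.56), Wars (−0.76) and Wars2 (−1.02). Srp68 was called under every alternative, with log2 fold changes from −1.87 to −1.03. Single libraries carry the spread of the sparsest genes: Aars2 had 49 counts in wild type replicate 3 and 11 to 20 in the others, Vars2 had 2 counts in SKO replicate 3 and 28 to 59 in the others, and Pars2 had 48 counts in wild type replicate 1 and 0 to 5 in the others.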
